A study of Mus musculus with 8 samples.

Results

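Respiratory complex I was followed in mouse liver through the 47 genes whose symbols begin with Ndufa, Ndufb, Ndufc, Ndufs or Ndufv, of 25489 symbols listed in all. RNA-seq values list 46 of them and Ribo-seq values all 47, with Ndufb4c listed in Ribo-seq only. The 8 symbols Ndufaf1 to Ndufaf8 are assembly factors and the other 39 were counted as subunits. RNA-seq read polyadenylated mRNA, and Ribo-seq read ribosome-protected fragments (RPFs, or footprints), short pieces that stay covered by a ribosome when the rest of the mRNA is digested. Every library came from liver of male C57BL/6 mice, labelled as post-natal week 25, that had been on a diet with 45% of its energy as fat since week 8. Mice of the HF group had this diet alone, and those of the HB group had it together with betaine, a methyl donor, at 2% w/v in water. Each assay had 2 libraries per group, named here HF1, HF2, HB1 and HB2. The labels and the study's methods state different lengths of feeding. The labels describe pooled preparations and the study's methods a choice of 2 mice per group for sequencing, and neither says whether same-numbered libraries of the assays share a mouse. Libraries are thus the replicates, and p-values measure the spread between libraries only. Chow-fed mice were not analysed here.

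Complex I is the main entry of electrons into the respiratory chain. It oxidises NADH, passes the electrons over a flavin and a row of iron-sulfur clusters to ubiquinone, and pumps protons across the inner mitochondrial membrane. Core subunits carry this chemistry and accessory subunits surround them. The matrix arm has an N module, where NADH is oxidised, and a Q module, where ubiquinone is reduced, and the membrane arm has a proximal and a distal part. Assembly factors hold intermediates together and are absent from the finished enzyme. In liver the complex reoxidises the NADH made by fatty acid oxidation and the citric acid cycle. The 7 subunits encoded by mitochondrial DNA and Ndufb1 were not analysed here.

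The deposited values are RPKM, reads per kilobase of gene and per 1000000 reads of the library, and RPM below is the same without the length. Whole reads were recovered from the steps between them. By these steps RNA-seq libraries held 11661207 to 22543471 reads and Ribo-seq libraries 387980 (HF1), 1056546 (HF2), 257086 (HB1) and 141890 (HB2), so that 3 footprint reads on a gene of 1 kb stood for 2.84 to 21.1 RPKM. All 10 hepatocyte markers were listed above 0, with mRNA sums of 48427 to 60233 RPKM. The summed mRNA of 5 erythroid markers was 523 to 738 RPKM in HF1, HF2 and HB1 and 2249 in HB2, while their footprints summed to 1109, 617, 2559 and 381 RPKM in HF1, HF2, HB1 and HB2. The mRNA of 4 adipocyte markers summed to 9.59 and 12.1 RPKM in HF and 22.3 and 23.4 in HB, and the footprints of 6 stellate cell markers to 149 and 132 in HF and 101 and 93.7 in HB, whereas the mRNA of the latter summed to 35.4 and 33.5 in HF and 73.3 and 43.7 in HB. The part of these cells in the results was not tested. In bulk liver, fewer cells of a type and less RNA per cell cannot be told apart.

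Subunit mRNAs were more abundant than assembly factor mRNAs. The median subunit had a level of 7.36, 7.33, 7.18 and 7.59 on the log2(RPKM + 1) scale in HF1, HF2, HB1 and HB2, and the median assembly factor 3.34, 3.71, 3.99 and 3.75, beside 3.20, 3.17, 2.96 and 2.87 for all tested genes. The classes were thus 3.19 to 4.02 log2 units apart within each library. Levels differed widely inside the complex. Ndufa3, a small subunit of the proximal membrane arm, measured 713 and 719.7 RPKM in the HF libraries, whereas Ndufs1, the largest iron-sulfur core subunit, measured 22.7 and 22.3. Among the assembly factors Ndufaf8 was at 23.6 and 26.7 RPKM and Ndufaf5 at 0.942 and 1.24.

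**Figure D1:**
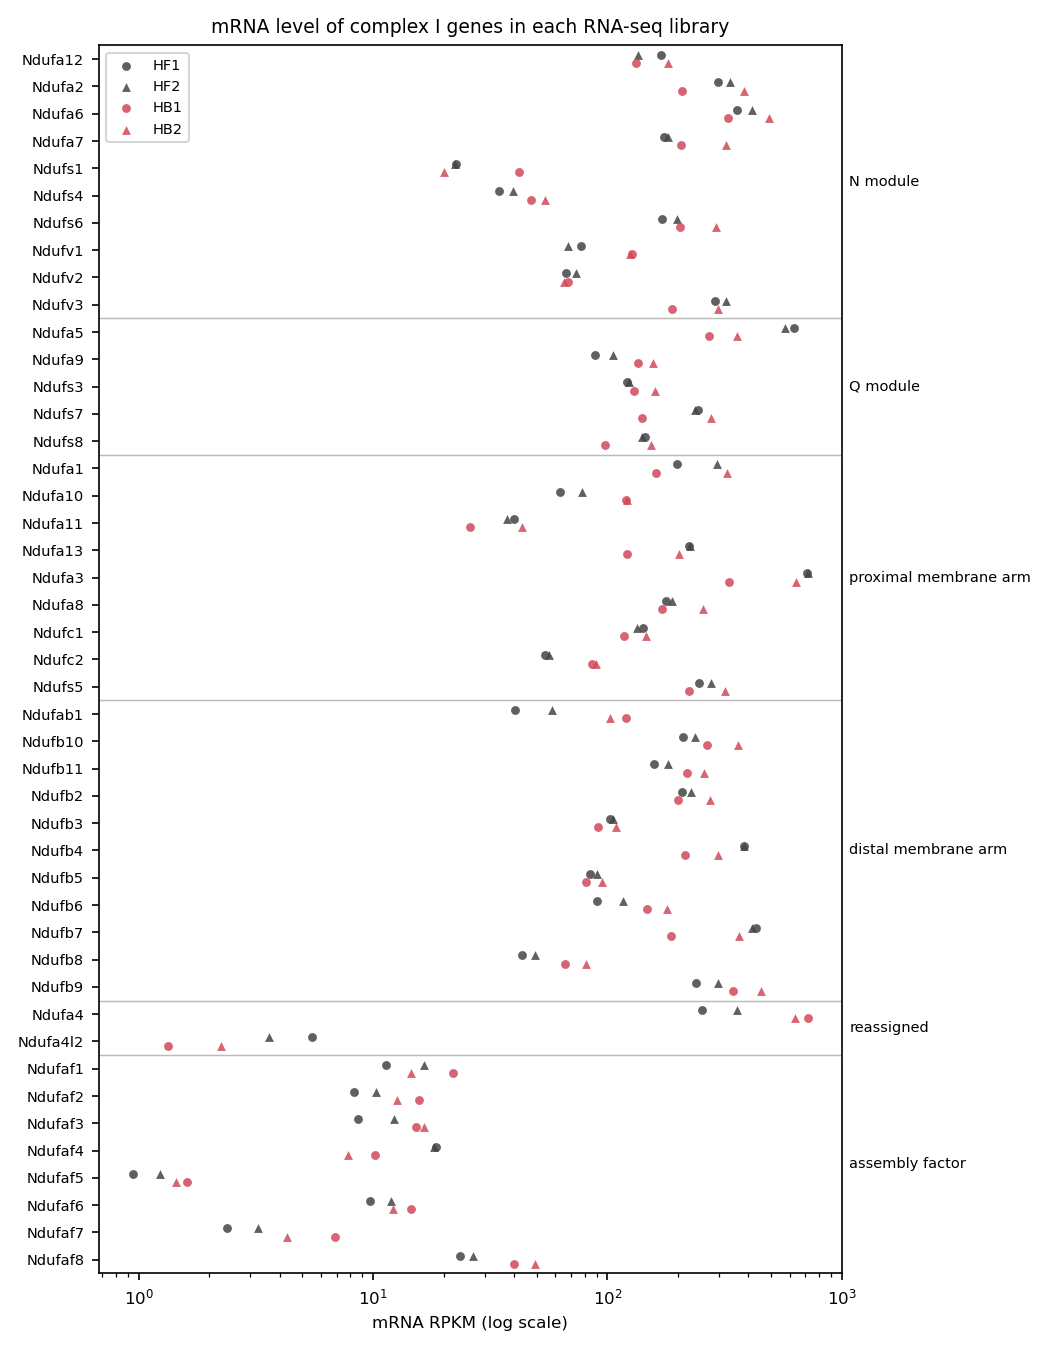
mRNA level in RPKM (log axis) of 45 of the 46 complex I genes in each RNA-seq library, grouped by module. Circles are replicate 1 and triangles replicate 2, dark symbols are HF and red symbols HB. Both HB libraries lie above both HF libraries for Ndufab1 and Ndufa4 and below them for Ndufa5 and Ndufaf4.

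With betaine the mRNAs of 5 of the listed genes rose and 3 fell, at a Benjamini-Hochberg adjusted p under 0.05 (limma on log2(RPKM + 1), adjusted over 10687 genes). Ndufab1, Ndufa4, Ndufv1, Ndufaf8 and Ndufa10 rose, and Ndufaf4, Ndufa4l2 and Ndufa5 fell. Those that rose were 10.9% of the 46 members, beside 7.92% of all tested genes, and those that fell 6.52%, beside 19.1%. Both HB libraries lay above both HF libraries in 22 members (47.8%), beside 24.8% of all tested genes, and below them in 7 (15.2%), beside 43.3%. The median log2 change was 0.08 over 38 subunits and 0.46 over 8 assembly factors, beside -0.19 over all tested genes.

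None of the 46 members passed the stricter call of a log2 change beyond 1 with an unadjusted p under 0.001, which limma gave to 2.3% of all tested genes as higher and 6.56% as lower. At an unadjusted p under 0.05 limma had 10 members higher and 3 lower, beside 12.9% and 27.6%, and voom on the recovered reads also made 0 of the stricter calls. Other choices did make them. Ndufa4 and Ndufab1 were called higher with log2 values shifted to a common median (beside 5.05% of all tested genes) and with the replicate number as a block (4.66%). With the block numbers crossed between diets Ndufab1 alone was (4.44%). The 8 changes at an adjusted p under 0.05 did not hold under every choice. Without HF1 all 8 missed that threshold (adjusted p 0.144 to 0.394, limma), and so they did when genes of low level stayed in the fit (0.0596 to 0.111). Without HF2 it was missed by Ndufa10, Ndufa5, Ndufaf4, Ndufaf8 and Ndufv1 (0.104 to 0.292), without HB1 by Ndufa4l2 (0.0916) and Ndufa5 (0.0516), and without HB2 by Ndufaf8 (0.0658). With log2 values shifted to a common median the 3 that fell missed it (0.0686 to 0.130), with RPKM rescaled to a common sum Ndufa10, Ndufaf8 and Ndufv1 did (at most 0.0534), and with voom Ndufa10, Ndufa4l2 and Ndufaf8 did (0.0533 to 0.0709). Ndufa10 also missed it with the replicate number as a block (0.0505) and with RPKM scaled to protein-coding reads (0.0511).

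In the N module the gene that rose was Ndufv1, the core subunit that binds NADH and the flavin. Its mRNA measured 77.5 and 68.1 RPKM in HF1 and HF2 and 127 and 125 in HB1 and HB2 (log2 change 0.79, SE 0.25, adjusted p = 0.0431, limma). The groups did not overlap. Ndufv2, an iron-sulfur subunit next to Ndufv1, measured 66.6, 73.4, 68.1 and 65.3 RPKM in HF1, HF2, HB1 and HB2 (log2 change -0.07, SE 0.25), with all 4 libraries close together. Ndufs1 measured 22.7, 22.3, 41.9 and 20.2 RPKM (log2 change 0.36, SE 0.33), so that HB1 stood high and HB2 just under the HF libraries. Of the 10 subunits of the module 7 had a change above 0, with a median of 0.21.

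The Q module held a gene that fell. Ndufa5, an accessory subunit, measured 628 and 572 RPKM in HF and 272 and 357 in HB (log2 change -0.94, SE 0.28, adjusted p = 0.0347, limma). Both HB libraries were lower than both HF libraries. Ndufs3, Ndufs7 and Ndufs8, core subunits of this module, did not pass the test. Ndufs3 measured 121, 124, 130.2 and 159.6 RPKM (log2 change 0.23, SE 0.26), with HB above HF. Ndufs7 measured 244, 236, 141 and 276 RPKM (log2 change -0.28, SE 0.34) and Ndufs8 145, 141, 97.7 and 154 (log2 change -0.22, SE 0.29), both with HB1 lowest and HB2 highest of the 4 libraries.

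In the proximal membrane arm Ndufa10, an accessory subunit related to nucleoside kinases, rose from 62.9 and 77.7 RPKM to 120.0 and 121 (log2 change 0.78, SE 0.25, adjusted p = 0.0480, limma). It was 1 of 9 subunits there, whose median change was -0.07. In the distal part Ndufab1, the mitochondrial acyl carrier protein, rose from 40.3 and 58.1 RPKM to 119.8 and 103 (log2 change 1.18, SE 0.28, adjusted p = 0.0148, limma). This was the largest rise among the members. The other 10 distal subunits did not pass the test, and the median of all 11 was 0.48.

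Ndufs5, Ndufa8, Ndufb7 and Ndufb10 are twin CX9C proteins, which fold by forming disulfides in the intermembrane space. None of the 4 passed the test in mRNA with limma, at an adjusted or an unadjusted p under 0.05. Ndufb7 measured 433 and 414 RPKM in HF and 186 and 363 in HB (log2 change -0.70, SE 0.34, adjusted p = 0.151). Ndufb10 measured 209, 235, 266 and 362 RPKM (log2 change 0.48, SE 0.28), with both HB libraries above HF. Ndufs5 measured 246, 277, 224 and 317 RPKM (log2 change 0.03, SE 0.28) and Ndufa8 179, 189, 170.3 and 255 (log2 change 0.18, SE 0.29), and both overlapped between the groups.

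Ndufa4 was long counted in complex I and is now placed in cytochrome c oxidase. Its mRNA rose from 254 and 357 RPKM to 718 and 635 (log2 change 1.16, SE 0.29, adjusted p = 0.0186, limma). Its paralog Ndufa4l2, known as a hypoxia-induced gene, was scarce and fell from 5.52 and 3.60 RPKM to 1.33 and 2.24 (log2 change -0.99, SE 0.28, adjusted p = 0.0301, limma). The paralogs thus passed the test in opposite directions.

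Of the 8 assembly factor mRNAs 7 had a log2 change above 0 under the deposited scaling, beside 4252 of 10687 tested genes. The count was also 7 with a common sum (beside 4047 of 10695), with a common median (5848 of 10687) and with scaling to protein-coding reads (4199 of 10687). Ndufaf8, a small partner of Ndufaf5, rose from 23.6 and 26.7 RPKM to 39.8 and 49.3 (log2 change 0.79, SE 0.25, adjusted p = 0.0436, limma). Ndufaf4, which acts on early intermediates together with Ndufaf3, fell from 18.6 and 18.2 RPKM to 10.2 and 7.81 (log2 change -0.96, SE 0.25, adjusted p = 0.0223, limma). The other 6 did not pass the test. Ndufaf7, a methyltransferase needed for assembly of the complex, measured 2.38, 3.23, 6.88 and 4.30 RPKM (log2 change 0.77, SE 0.28, adjusted p = 0.0683). Ndufaf3 measured 8.60, 12.3, 15.3 and 16.5 RPKM (log2 change 0.58, SE 0.26) and Ndufaf2, a paralog of Ndufa12, 8.32, 10.3, 15.7 and 12.6 (log2 change 0.55, SE 0.26). Ndufaf1, which acts in membrane arm assembly, measured 11.4, 16.5, 22.0 and 14.5 RPKM (log2 change 0.36, SE 0.29). Ndufaf6 measured 9.67, 12, 14.5 and 12.2 RPKM (log2 change 0.28, SE 0.25) and Ndufaf5, which hydroxylates Ndufs7, 0.942, 1.24, 1.61 and 1.44 (log2 change 0.27, SE 0.23). Both HB libraries lay above both HF libraries in 6 of the 8, beside 24.8% of all tested genes. Ndufaf1 overlapped, and Ndufaf4 lay below, as did 43.3% of all tested genes.

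The HB libraries differed from each other in this set of genes. HB2 exceeded HB1 in 33 of 38 subunit mRNAs (86.8%) and in 2 of 8 assembly factor mRNAs, beside 5026 of 10687 tested genes. The same order was seen in 28 of 38 subunit mRNAs of complexes II to V (73.7%). The ratio of HB2 to HB1 ran from 0.481 (Ndufs1) to 2.00 (Ndufa1) and was over 1.5 in 11 members, while that of HF2 to HF1 was over 1.5 in 0 members. As a description across genes, which share these libraries, the log2 ratio of HB2 to HB1 had a Spearman correlation of -0.466 with coding length over 46 members and -0.0992 over 10188 protein-coding genes. The median change of the subunits was -0.11 without HB2 and 0.34 without HB1.

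Footprints of complex I rested on few reads. The median subunit had 16, 47, 15 and 6 reads in HF1, HF2, HB1 and HB2, and the median assembly factor 4, 9.5, 3.5 and 1. In HB2 11 of 39 subunits and 8 of 8 assembly factors had 3 reads or fewer. The 3 genes with the highest mean footprint level were Ndufa4, Ndufa2 and Ndufab1. Ndufa4 measured 223, 377, 282 and 425 RPKM of footprints in HF1, HF2, HB1 and HB2 (log2 change 0.25, SE 0.39). Ndufa2, a subunit of the N module, measured 223, 197, 207 and 234 (log2 change 0.07, SE 0.26), and Ndufab1 187, 189, 106 and 269 (log2 change -0.16, SE 0.49). The groups overlapped in all 3, although 2 of them had risen in mRNA.

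**Figure D2:**
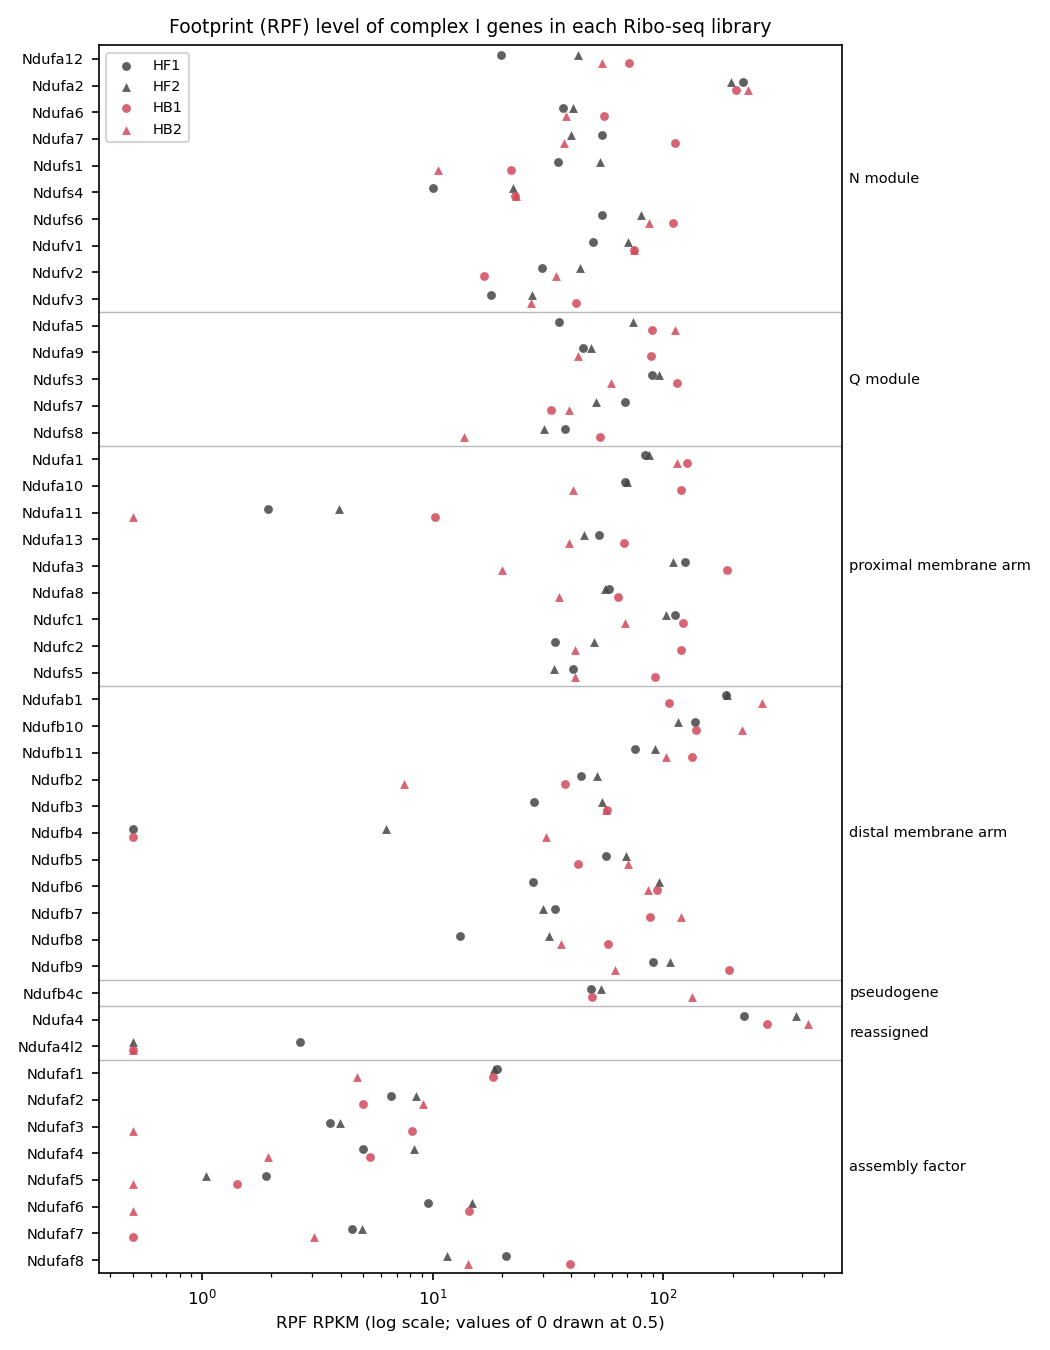
Footprint (RPF) level in RPKM (log axis) of 46 of the 47 complex I genes in each Ribo-seq library, grouped by module. Circles are replicate 1 and triangles replicate 2, dark symbols are HF and red symbols HB. Both HB libraries lie above both HF libraries for Ndufb7 and below them for Ndufs1, and 3 assembly factors are at 0 in HB2 (values of 0 are drawn at the left edge).

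In footprints Ndufb7 was called higher with betaine and Ndufs1 lower, at a log2 change beyond 1 with an unadjusted p under 0.05 (limma). These were 1 of 46 members in each direction, beside 1.58% and 7.86% of 11190 tested genes. At an unadjusted p under 0.05 alone the counts were again 1 and 1, beside 1.72% and 8.31%. At an adjusted p under 0.05 limma called 0 members and 0 of all tested genes. Both HB libraries lay above both HF libraries in 12 members (26.1%), all of them subunits, beside 9.07% of all tested genes, and below them in 5 (10.9%), beside 33.2%.

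The calls in footprints moved with the scaling and with single libraries. The Ribo-seq libraries of HB stood apart from those of HF in make-up, with 87.1% and 80.8% of reads on protein-coding genes, beside 92.0% and 91.1% in HF, and with RPKM sums of 1738580 and 2642060, beside 1088500 and 1253720. The part of this in the results was not tested. With RPKM rescaled to a common sum 0 members were called higher and 5 lower, beside 0.36% and 24.2% of all genes tested in that way. With log2 values shifted to a common median 5 were called higher and 0 lower, beside 3.12% and 3.76%. Without HB1 there were 2 higher and 8 lower (beside 3.6% and 23.3%), without HB2 4 higher and 1 lower (4.68% and 14.2%), without HF2 5 higher and 0 lower (1.15% and 7.07%), and without HF1 Ndufb7 alone as higher (0.509% and 6.45%). The median log2 change of the subunits was 0.30, beside -0.43 over all tested genes, and turned to -0.60, beside -1.19, with RPKM rescaled to a common sum. It was 0.62, beside -0.10, with a common median, 0.05 without HF1, 0.17 without HB1 and 0.56 without HB2. That of the assembly factors was -0.72 and stayed below 0 under the other scalings, at -1.29 to -0.40.

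Ndufb7 had 33.9 and 30.2 RPKM of footprints in HF1 and HF2 and 87.6 and 119 in HB1 and HB2, from 7, 17, 12 and 9 reads. The HB libraries lay well above the HF libraries. The mean was 3.23-fold higher (log2 change 1.64, SE 0.31, unadjusted p = 0.00361, adjusted p = 0.493, limma), and the ratio of RPM, HB over HF, was 3.17, with a 95% interval of 1.68 to 5.94. For ratios of RPM the reads of both libraries of a group were added together, so that the deeper library weighs more. Intervals here cover counting error only. Ndufb7 was called without any 1 of the 4 libraries (log2 changes 1.43 to 1.86), but not with RPKM rescaled to a common sum (0.79). Its mRNA, given above, was lower in both HB libraries than in both HF libraries.

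Ndufs1 had 34.8 and 53.3 RPKM of footprints in HF and 21.9 and 10.6 in HB, from 36, 150, 15 and 4 reads. Both HB libraries lay below both HF libraries (log2 change -1.44, SE 0.49, unadjusted p = 0.0343, adjusted p = 0.493, limma). The ratio of RPM was 0.370, with a 95% interval of 0.218 to 0.594. The call was lost without HF1 (log2 change -1.74), without HF2 (-1.14) and without HB2 (-0.95), as well as with a common median (-1.11) and without the variance trend, each time with the direction kept.

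Ndufs3, Ndufs7, Ndufs8, Ndufv1 and Ndufv2, also core subunits, were not called in footprints under the deposited scaling. Ndufs7 and Ndufv2 were called lower with RPKM rescaled to a common sum, and Ndufs8 without HB1. Ndufs7 measured 68.1, 51.3, 32.5 and 39.2 RPKM (log2 change -0.71, SE 0.33, unadjusted p = 0.0816), with both HB libraries low. Ndufv1, whose mRNA rose, measured 49.7, 70.0, 75.0 and 74.5 RPKM (log2 change 0.34, SE 0.31), and Ndufv2 29.9, 43.4, 16.6 and 34.4 (log2 change -0.57, SE 0.48). Ndufs3 measured 89.6, 95.7, 115 and 59.4 RPKM (log2 change -0.16, SE 0.40) and Ndufs8 37.6, 30.4, 53.0 and 13.7 (log2 change -0.30, SE 0.68). In both HB1 was the highest library and HB2 the lowest.

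Among accessory subunits Ndufa5 measured 35.4 and 73.6 RPKM of footprints in HF and 89.0 and 113 in HB (log2 change 0.96, SE 0.44, unadjusted p = 0.0825), the opposite order of its mRNA. Ndufa12, an N module subunit added late in assembly, measured 19.8, 42.8, 71.1 and 54.2 RPKM in HF1, HF2, HB1 and HB2 (log2 change 1.06, SE 0.47, unadjusted p = 0.0732). Neither was called under the deposited scaling, and both were called higher with a common median and without HF2. Ndufb2, a small distal subunit, measured 44.1, 51.6, 37.4 and 7.53 RPKM in HF1, HF2, HB1 and HB2 (log2 change -1.43, SE 0.77, unadjusted p = 0.124), from 16, 51, 9 and 1 reads, so that its lowest value is a single read. With the replicate number as a block Ndufb2 was called lower. With the block numbers crossed between diets Ndufb2 was called lower and Ndufa12 higher, and with a common median Ndufs5 was called higher. Of the other twin CX9C subunits Ndufs5 measured 40.5, 33.5, 91.7 and 41.5 RPKM (log2 change 0.73, SE 0.47) and Ndufb10 137, 116, 138 and 219 (log2 change 0.46, SE 0.33), both with the HB libraries above HF, in each case by little in 1 of them. Ndufa8 measured 58.4, 56.0, 63.6 and 35.5 RPKM (log2 change -0.26, SE 0.39) and Ndufa10, whose mRNA rose, 68.2, 69.7, 119 and 40.8 (log2 change 0.02, SE 0.56), and both overlapped.

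Of the 8 assembly factors 7 had a log2 change below 0 in footprints, beside 7879 of 11190 tested genes. They were 6 with log2 values shifted to a common median, beside 6197 of 11190 genes, and 8 with RPKM rescaled to a common sum, beside 10559 of 11657. None was called by limma under the deposited scaling, at an unadjusted p under 0.05 either. Ndufaf7 was called lower with a common sum and without HB2, and Ndufaf1, Ndufaf3 and Ndufaf6 without HB1, which leaves HB2, the library with the fewest reads, as the only one of HB. Ndufaf7 had 4, 12, 0 and 1 reads in HF1, HF2, HB1 and HB2, a ratio of RPM, HB over HF, of 0.226, with a 95% interval of 0.00540 to 1.46. Ndufaf4 had 7, 32, 5 and 1 reads (0.557, 0.193 to 1.32), Ndufaf6 4, 17, 4 and 0 (0.690, 0.172 to 2.04) and Ndufaf1 11, 29, 7 and 1 (0.724, 0.293 to 1.57). Ndufaf2 had 2, 7, 1 and 1 reads (0.805, 0.0846 to 3.89). The ratio was above 1 for Ndufaf8, with 4, 6, 5 and 1 reads (2.17, 0.649 to 6.60), and for Ndufaf3, with 2, 6, 3 and 0 (1.36, 0.232 to 5.66), although the fitted log2 change of Ndufaf3 was -0.66 (SE 1.19). All 7 intervals include 1. In RPKM, Ndufaf1 measured 19.0, 18.4, 18.2 and 4.72, Ndufaf2 6.63, 8.52, 5.00 and 9.06, Ndufaf3 3.58, 3.95, 8.11 and 0 and Ndufaf4 4.97, 8.34, 5.35 and 1.94. Ndufaf6 measured 9.53, 14.9, 14.4 and 0, Ndufaf7 4.48, 4.93, 0 and 3.06 and Ndufaf8 20.9, 11.5, 39.4 and 14.3. Both HB libraries lay below both HF libraries for Ndufaf1 and Ndufaf7 only, 25% of the assembly factors beside 33.2% of all tested genes. Ndufaf5 had 2, 3, 1 and 0 reads and Ndufa4l2 1, 0, 0 and 0, at or under a floor of 3 reads in every library, and no fold is given for them.

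**Figure D3:**
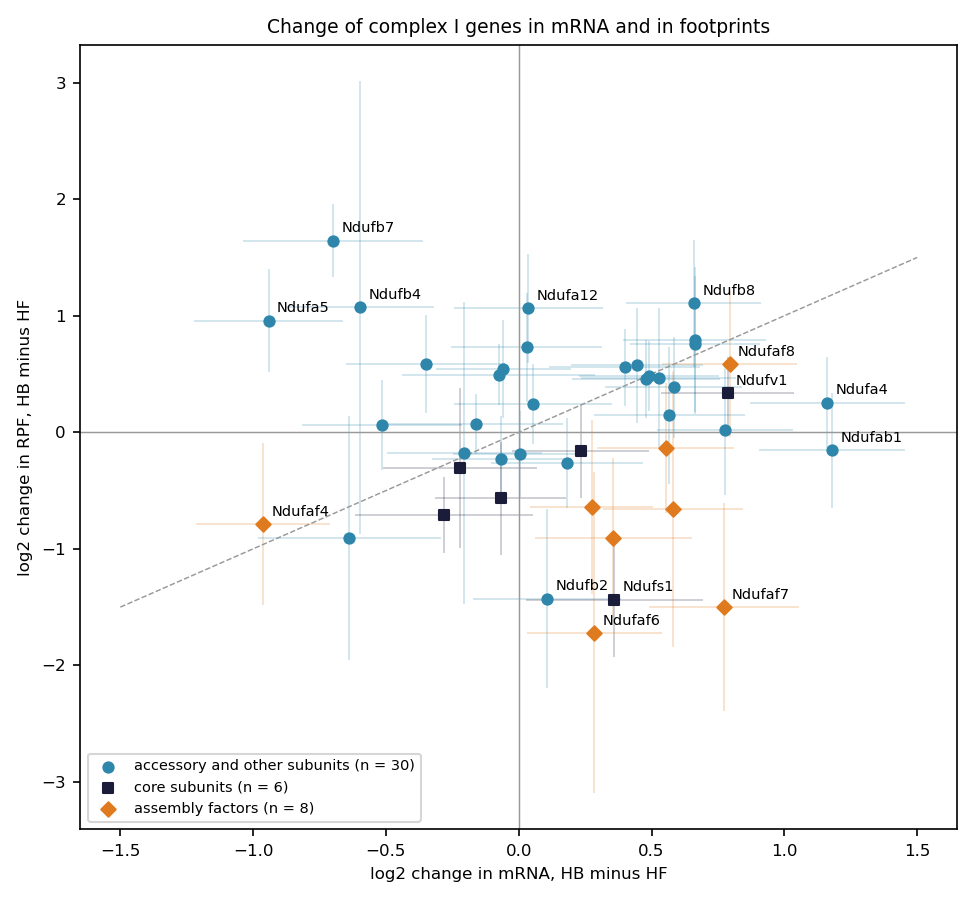
Log2 change from HF to HB in mRNA (horizontal axis) and in RPF (vertical axis) of 44 of the 45 complex I genes tested in both, with standard errors and the line of equal change. Colours and symbols separate core subunits, other subunits and assembly factors. Of the 8 assembly factors 6 lie above 0 in mRNA and below 0 in RPF, while Ndufb7 and Ndufa5 lie below 0 in mRNA and above 0 in RPF.

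Of 45 members tested in both assays 18 had a change above 0 in both, 12 in mRNA only, 8 in RPF only and 7 in neither, which is 40%, 26.7%, 17.8% and 15.6%, beside 13.6%, 28.9%, 14.7% and 42.8% of 9455 genes. These shares hold for the deposited scaling. With RPKM rescaled to a common sum they were 2.17%, 56.5%, 8.7% and 32.6% of 46 members, beside 2.63%, 37.4%, 4.52% and 55.5% of 9652 genes. With a common median they were 64.4%, 17.8%, 11.1% and 6.67% of 45 members, beside 27.5%, 30.3%, 16.7% and 25.5%. The larger share of members above 0 in both assays was thus not seen with a common sum. The Spearman correlation between the changes was 0.0568 over these members and 0.104 over 9455 genes, given as a description, since genes share the libraries. Assembly factors made up 6 of the 12 that were above 0 in mRNA only, or 7 of 26 with a common sum and 5 of 8 with a common median.

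Translation efficiency (TE) is the footprint level divided by the mRNA level. Each ratio joins an RNA-seq and a Ribo-seq library of the same diet and number. Since it is not stated that such libraries belong together, ratios of single libraries may rest on arbitrary pairs. Subunits had a lower ratio than most genes in HF, with a median of 0.318 in HF1 and 0.459 in HF2, beside 1.07 and 1.02 over 9453 tested genes. The median was 0.641 and 0.733 for core subunits, 0.304 and 0.361 for accessory subunits, and 0.935 and 0.832 for assembly factors. The gene lengths recovered with the reads exceeded the coding length in 45 members in either assay, and they differed over 1.5 times between the assays for Ndufa12, Ndufb2, Ndufb11 and Ndufv3, where that of Ndufb11 in Ribo-seq is uncertain. Reads outside the coding sequence thus count toward the values, and their part in the results was not tested.

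With betaine Ndufb7 was called higher in TE, at a log2 change beyond 2 with an unadjusted p under 0.05 (limma), 1 of 45 members beside 1.49% of 9455 tested genes. No member was called lower, beside 4.6%. At an unadjusted p under 0.05 alone Ndufb7 was higher and Ndufs1 lower, beside 2.83% and 9.37%, and the model that fits both assays together with an interaction term called Ndufb7 higher and Ndufaf7 lower. At an adjusted p under 0.05 limma called 0 members and 0 of the 9455 tested genes. Both HB ratios lay above both HF ratios in 4 members (Ndufa5, Ndufb3, Ndufb7 and Ndufv3), beside 14.0% of all tested genes, and below them in 9, beside 31.7%. With the numbers of the assays crossed these were 6 members (14.8% of all) and 11 (32.3%), and Ndufb3 was no longer among the higher ones.

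The ratio of Ndufb7 was 0.0782 and 0.0729 in HF and 0.470 and 0.328 in HB (log2 change 2.34, SE 0.87, unadjusted p = 0.0352, adjusted p = 0.382, limma). Both HB ratios were several times the HF ratios. The call was lost without HF1 (log2 change 2.39, unadjusted p = 0.151, limma), without HF2 (2.30, 0.167), with RPKM rescaled to a common sum (1.53, 0.154) with a pseudocount of 0.1 (2.37, 0.0845) and with the replicate number as a block (2.34, 0.0752, or 0.0801 with the numbers crossed between diets). Ndufs1 went from 1.53 and 2.39 to 0.522 and 0.525 (log2 change -1.80, SE 0.56, unadjusted p = 0.0179, adjusted p = 0.364, limma). It missed an unadjusted p under 0.05 without HF1 (log2 change -2.11, unadjusted p = 0.0807), without HF2 (-1.48, 0.208) and with the numbers crossed (-1.80, 0.0715).

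Ndufa5 had ratios of 0.0563 and 0.129 in HF and 0.327 and 0.316 in HB (log2 change 1.90, SE 0.93, unadjusted p = 0.0861, limma), and Ndufa12 of 0.117 and 0.315 in HF and 0.535 and 0.297 in HB (log2 change 1.03, SE 0.89). On the other side Ndufab1 had 4.64 and 3.25 in HF and 0.884 and 2.61 in HB (log2 change -1.33, SE 0.65, unadjusted p = 0.0851), and Ndufaf7 1.88 and 1.53 in HF and 0 and 0.712 in HB (log2 change -2.27, SE 0.95, unadjusted p = 0.0534). None of these 4 was called by limma under the deposited scaling with all libraries in the fit. Ndufaf7 was called lower by the interaction model, with the numbers of the assays crossed and with the replicate block, and Ndufab1 and Ndufaf7 with RPKM rescaled to a common sum.

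Of the other core subunits Ndufv1 had ratios of 0.641 and 1.03 in HF and 0.589 and 0.597 in HB (log2 change -0.45, SE 0.62), with both HB ratios below HF. Ndufv2 had 0.449, 0.591, 0.244 and 0.528 in HF1, HF2, HB1 and HB2 (log2 change -0.50, SE 0.74) and Ndufs3 0.739, 0.775, 0.881 and 0.372 (log2 change -0.40, SE 0.69). Ndufs7 had 0.279, 0.218, 0.230 and 0.142 (log2 change -0.43, SE 0.84) and Ndufs8 0.260, 0.216, 0.543 and 0.0893 (log2 change -0.08, SE 1.08). The groups overlapped in these 4. Of the other twin CX9C subunits Ndufs5 had 0.165, 0.121, 0.410 and 0.131 (log2 change 0.70, SE 0.97), Ndufa8 0.326, 0.297, 0.374 and 0.139 (log2 change -0.44, SE 0.86) and Ndufb10 0.656, 0.494, 0.519 and 0.606 (log2 change -0.02, SE 0.64), again with overlap. Ndufa4 had 0.878 and 1.06 in HF and 0.393 and 0.670 in HB (log2 change -0.91, SE 0.63), with both HB ratios lower, and Ndufa10 1.08, 0.897, 0.992 and 0.337 in the 4 libraries (log2 change -0.76, SE 0.73).

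Of the other assembly factors Ndufaf1 had ratios of 1.67, 1.12, 0.830 and 0.326 (log2 change -1.26, SE 0.67) and Ndufaf2 of 0.796, 0.825, 0.318 and 0.719 (log2 change -0.69, SE 0.67), both with the HB ratios below HF. Ndufaf3 had 0.417, 0.321, 0.532 and 0 (log2 change -1.24, SE 1.22) and Ndufaf6 0.985, 1.24, 0.991 and 0 (log2 change -2.00, SE 1.24), where the 0 in HB2 stands for 0 reads. Ndufaf5 had 3 footprint reads or fewer in every library, and its ratio is not given. Ndufaf4 had 0.268, 0.459, 0.525 and 0.248 (log2 change 0.18, SE 0.74) and Ndufaf8 0.884, 0.430, 0.990 and 0.290 (log2 change -0.21, SE 0.83), with overlap. The median TE change of the core subunits was -0.45, beside -0.35 over all tested genes. As a description, the change in TE had a Spearman correlation of -0.446 with coding length over 45 members and 0.170 over 9242 protein-coding genes.

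**Figure D4:**
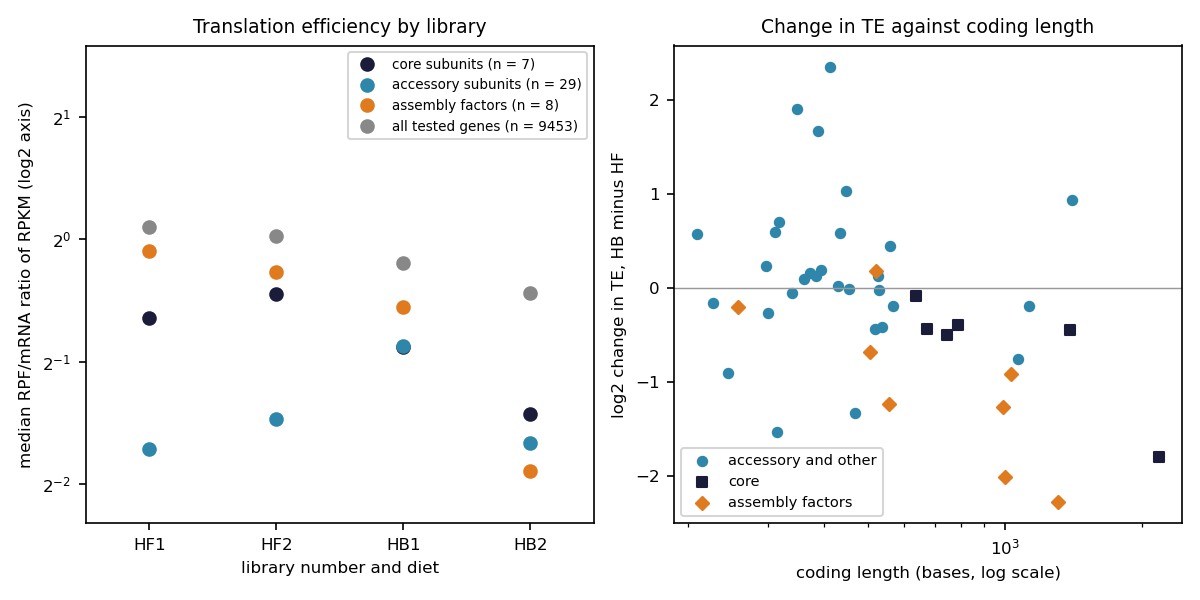
Left, median RPF to mRNA ratio of RPKM in each library for core subunits, accessory subunits, assembly factors and all tested genes. Right, log2 change in TE from HF to HB against coding length (log axis) for 44 of the 45 members tested. The median of the assembly factors lies above those of the subunits in HF1, HF2 and HB1 (0.681 in HB1, beside 0.543 for core and 0.546 for accessory subunits). It is the lowest in HB2 alone, at 0.269, where no assembly factor had more than 1 footprint read.

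Subunits and assembly factors were then compared within each library. In mRNA the subunit median exceeded the assembly factor median by a log2 of 4.02 and 3.61 in HF and 3.19 and 3.85 in HB, and the groups overlapped. In RPF the gap was 2.90 and 2.54 in HF and 3.55 and 3.83 in HB, with no overlap. In TE it was -1.54 and -0.91 in HF and -0.33 and -0.04 in HB, again with no overlap. With the numbers of the assays crossed it was -1.45 and -0.955 in HF and -0.954 and 0.41 in HB, so that the groups nearly touched. The median change of the subunits minus that of the assembly factors was -0.38 in mRNA, 1.02 in RPF and 1.05 in TE. No test was made, since 2 libraries against 2 cannot give a two-sided p below 0.333 in an exact permutation test. In mRNA the difference was -0.17 without HF1, -0.69 without HB2 and, with its sign turned, 0.02 without HB1. In RPF it was 0.57 without HB2 and 1.48 without HB1, and in TE it was 0.66 without HB2 and 0.71 without HF1.

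Summed reads gave a measure that does not rest on medians of sparse genes. The 8 assembly factors took 92.8 (95% Poisson interval 65.0 to 128), 106 (87.3 to 128), 101 (66.1 to 148) and 35.2 (11.4 to 82.2) RPM in the Ribo-seq libraries HF1, HF2, HB1 and HB2, from 36, 112, 26 and 5 reads. HB1 thus stood with the HF libraries, and HB2 alone was lower. In RNA-seq they took 129, 147, 151 and 127 RPM. The subunits took 4744, 5053, 4719 and 6122 RPM in RNA-seq. In Ribo-seq they took 1827 (1695 to 1967), 2196 (2107 to 2287), 2594 (2401 to 2799) and 2065 (1835 to 2316), with HB1 highest and HB2 between the HF libraries.

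**Figure D5:**
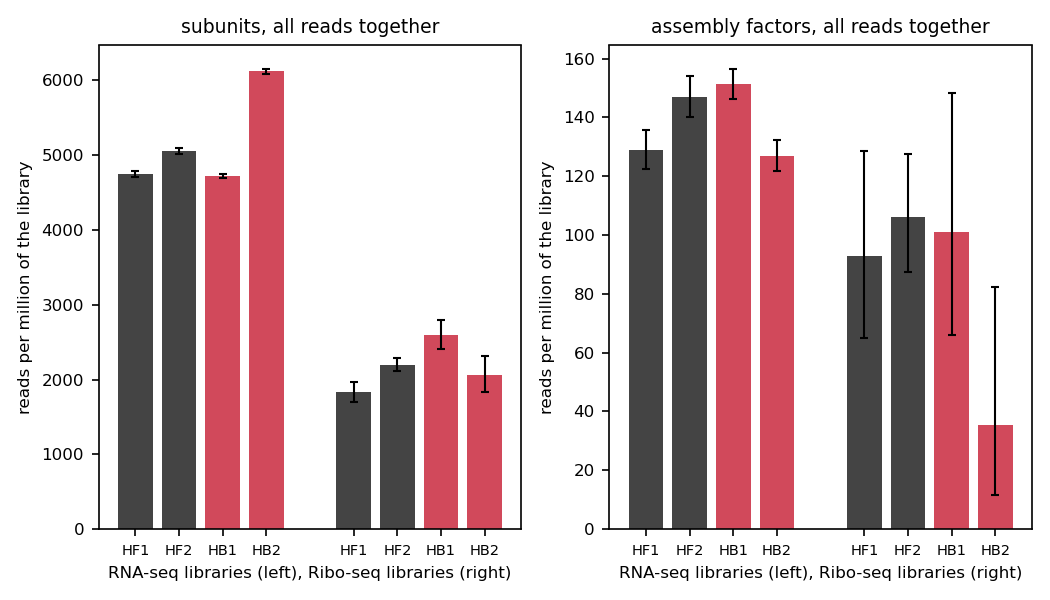
Summed RPM of all subunits and of all 8 assembly factors in RNA-seq and Ribo-seq, with 95% Poisson intervals for counting error. HF and HB libraries are drawn in dark and red. In Ribo-seq the assembly factors stand at 92.8 to 106 RPM in 3 libraries and at 35.2 in HB2.

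The distal membrane arm took 456 (391 to 529) and 585 (540 to 633) RPM of footprints in HF and 665 (569 to 773) and 691 (561 to 842) in HB. Both HB values exceeded both HF values, although the intervals of HF2 and the HB libraries overlap. The proximal arm took 376, 372, 615 and 268 in HF1, HF2, HB1 and HB2, the Q module 381, 395, 525 and 310, the N module 492, 648, 642 and 564 and the core subunits 528, 624, 576 and 409. In these 4 sets the HB libraries did not lie together on one side of the HF libraries.

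Other genes of the respiratory chain were described from lists. Of 38 subunits of complexes II to V 12 rose in mRNA and 0 fell at an adjusted p under 0.05 (limma, with 16 higher and 1 lower at an unadjusted p under 0.05), beside 7.92% and 19.1% of all tested genes (12.9% and 27.6% unadjusted), with a median log2 change of 0.48. The 38 subunits counted for complex I include Ndufa4, now placed in cytochrome c oxidase, which rose, and its paralog Ndufa4l2, which fell. Of these 38 subunits 4 rose, 2 fell and the median was 0.08 (also 0.08 without this pair). The difference between the lists was not tested. In RPF the medians were 0.20 and 0.30. Of 11 further assembly factors 8 were tested in mRNA, of which 1 rose and 0 fell at an adjusted p under 0.05, beside the same 7.92% and 19.1%. The one that rose was Nubpl, which serves iron-sulfur clusters of complex I, from 0.719 and 1.06 RPKM to 6.40 and 3.52 (log2 change 1.62, SE 0.29, adjusted p = 0.00666, limma). Foxred1 (log2 change -0.62, adjusted p = 0.122) and Tmem186 (-0.57, 0.119) were lower at an unadjusted p under 0.05 only. In footprints Nubpl had 3, 11, 0 and 0 reads and Tmem126b 4, 11, 2 and 0 in HF1, HF2, HB1 and HB2. Their lower TE, which passed the threshold of a call, rests on these counts of 0, and no fold is given.

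Of 7 regulators of mitochondrial genes 3 fell in mRNA at an adjusted p under 0.05, beside 19.1% of all tested genes. The alternative choices were not followed for these regulators, nor for Nubpl and complexes II to V. Esrra, a nuclear receptor of respiratory genes, fell from 65.4 and 62.7 RPKM to 25.8 and 32.5 (log2 change -1.12, SE 0.25, adjusted p = 0.0131, limma). Gabpb1, a subunit of an ETS-family factor, fell from 6.05 and 7.18 to 2.41 and 1.86 (log2 change -1.28, SE 0.25, adjusted p = 0.00853), and Nrf1, nuclear respiratory factor 1, from 3.73 and 4.67 to 2.10 and 2.11 (log2 change -0.74, SE 0.24, adjusted p = 0.0494). Their footprints did not fall at an unadjusted p under 0.05 (limma). Esrra measured 10.3, 9.71, 22.6 and 6.29 RPKM of footprints in HF1, HF2, HB1 and HB2 (log2 change 0.25, SE 0.69), Nrf1 6.05, 7.11, 1.83 and 9.92 (log2 change -0.44, SE 0.83) and Gabpb1 6.48, 3.81, 9.78 and 7.09 (log2 change 0.64, SE 0.56), with both HB libraries above HF for Gabpb1, from 5, 8, 5 and 2 reads. At an unadjusted p under 0.05 Gabpb1 was higher in TE (log2 change 1.92, SE 0.54, unadjusted p = 0.0118) and Tfam lower (log2 change -1.40, SE 0.51, unadjusted p = 0.0321), and neither passed the threshold of a call. In the same libraries 23 of the 38 subunits counted for complex I had a change above 0 in mRNA, beside 4252 of 10687 tested genes. Under other scalings these were 20 (common sum, beside 4047 of 10695) to 30 (common median, beside 5848 of 10687). A link between the regulators and the subunits was not tested.

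Since such factors are known for promoter sites, the 150 bases before the start site were searched on both strands in RefSeq sequences (GRCm38.p6), which held 40 of the 47 members. The NRF1 letters GCATGCGC stood before 3 of 33 subunits (Ndufa6, Ndufa8 and Ndufa11) and 1 of 7 assembly factors (Ndufaf4), and before 1.82% of 32851 promoters. The ETS letters CCGGAAG stood before Ndufb7, Ndufs3, Ndufaf1 and Ndufaf8, and before 5.53% of all promoters. The ERR letters AAGGTCA stood before Ndufb4 (2.31% of all promoters), the YY1 letters AAGATGG before 0 members (2.54%), and CCAAT before 7 subunits and 3 assembly factors (24.5%). A match describes letters only. Many windows overlap an annotated exon of their own gene, among them those of Ndufa6, Ndufa8, Ndufb7, Ndufs3, Ndufaf8 and Ndufb4. Letters in such a window may lie inside the annotated gene. The windows of Ndufa11, Ndufaf4 and Ndufaf1 have no such overlap. The windows of Ndufaf4 (chr4:24897933-24898082, plus strand) and Ndufa11 (chr17:56717612-56717761, plus strand) are shown because the NRF1 letters occur in each on both strands, overlapping in the capitals, while the mRNA of Ndufaf4 fell and that of Ndufa11 (40.1, 37.3, 25.9 and 43.1 RPKM) overlapped between the groups.
Ndufaf4: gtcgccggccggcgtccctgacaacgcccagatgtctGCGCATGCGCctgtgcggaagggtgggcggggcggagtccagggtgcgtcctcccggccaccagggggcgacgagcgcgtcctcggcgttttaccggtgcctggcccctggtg
Ndufa11: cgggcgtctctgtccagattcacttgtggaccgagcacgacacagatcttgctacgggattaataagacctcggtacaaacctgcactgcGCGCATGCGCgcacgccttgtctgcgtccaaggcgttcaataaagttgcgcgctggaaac

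Shared sequence limits the values of some members. Ndufb4, a distal subunit (chr16:37647170-37654453, minus strand), has a processed pseudogene, Ndufb4c (chr15:73809507-73809896, minus strand; GENCODE M21, GRCm38), which repeats its 387 coding bases with 0 mismatches. Coding bases 61 to 90 are shown for both because a footprint of about 28 bases from them fits either place.
Ndufb4: gccgagtatgacgtgtctccggagaccaga
Ndufb4c: gccgagtatgacgtgtctccggagaccaga
In RNA-seq Ndufb4 measured 381 and 385 RPKM in HF and 215 and 298 in HB (log2 change -0.60, SE 0.28, adjusted p = 0.139, limma). In Ribo-seq it had 0, 3, 0 and 2 reads and Ndufb4c 3, 9, 2 and 3, 22 for the pair in all libraries, and no fold is given for Ndufb4. The gene length recovered for Ndufb4c, 159 bases, is shorter than its transcript of 390. Its read counts, and those of the pair, are thus uncertain and may be too low. Of runs of 28 coding bases, Ndufab1 shares 100% with other annotated genes, Ndufs5 82.1%, Ndufa12 76.7% and Ndufs3 69.7%, so their values are uncertain where such reads were split. Ndufb7 shares 3.91% and Ndufs1 0%.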

How the data were processed

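RNA-seq and Ribo-seq of mouse liver were used as RPKM values deposited per library by the authors, who mapped reads with FANSe2 to mm10 and tested with edgeR, as the study's methods and the submitters' processing notes say. No counts were used as deposited. Whole reads were recovered from the RPKM steps (tolerance 0.02) for 99.97% to 99.99% of values above 0. The test was that of limma (version 3.58.1, R 4.3.3, variance trend) on log2(RPKM + 1), after genes whose RPKM averaged under 1 within the assay had been left out, so fold changes of low genes are understated. TE was log2((RPF + 1)/(mRNA + 1)) of libraries with the same group and number, not stated to belong together (correlations of their deviations -0.00239 in HF and -0.0774 in HB). Thresholds of the calls followed the study's, with Benjamini-Hochberg adjustment over all tested genes beside them. Low Ribo-seq depth limits precision, and intervals are exact Poisson or binomial ones.

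Members and gene lists were chosen with earlier results of these data known. Values in each library were given for called members and the 3 smallest p-values per measure and direction, in that measure, and for core and twin CX9C subunits, Ndufa4, Ndufa4l2 and all assembly factors (no footprint level or TE where every library had 3 reads or fewer), and 1 member is not reported here. Ndufa2, Ndufa3, Ndufa11, Ndufb4 and Ndufb4c were added after their values were seen. Alternatives covered the pseudocount, the filter, scalings, variance trend, voom, replicate block, interaction model and leaving out each library. Fits of mRNA and RPF were also run on simulated reads. These lacked the shifts in make-up seen between the Ribo-seq libraries, and TE was not simulated. Symbols were matched to GENCODE M21.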

Additional observations from a re-analysis of the deposited data

How the results depend on the processing

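Counts of called complex I genes moved with the processing. Where the adjusted p is named, an adjusted p under 0.05 replaced the unadjusted p and the log2 threshold of the call was kept. Shares of all tested genes called higher and lower under the same setting stand in brackets. In mRNA 0 were called. With the adjusted p 2 were higher (5.01%, 12.7%), with a common median 2 higher (5.05%, 2.72%), and 0 to 4 were called when 1 library was left out, with 1 higher and 3 lower without HB2 (4.7%, 9.81%). In RPF 2 were called, 0 with the adjusted p (0%, 0%), 5 lower with a common sum (0.36%, 24.2%), 5 higher with a common median (3.12%, 3.76%), 1 higher without the variance trend (1.5%, 8.7%), and 1 to 10 when 1 library was left out. In TE 1 was called, 0 with the adjusted p (0%, 0%) and 4 lower with a common sum (0.425%, 13.9%). With RNA and Ribo numbers crossed 2 were called (1.58%, 4.35%) and with the interaction model 2 (1.62%, 4.39%), each time 1 higher and 1 lower. With a pseudocount of 0.1 there were 0 (1.45%, 6.57%), and 0 to 7 when 1 library was left out, with 2 higher and 5 lower without HB1 (3.22%, 13.4%).

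The median change of the subunits went from 0.30 to -0.60 in RPF and from -0.02 to -0.84 in TE with a common sum, which moved the median of all tested genes from -0.43 to -1.19 and from -0.35 to -1.03. A common median moved the latter from -0.19 to 0.08 in mRNA and from -0.43 to -0.10 in RPF, and the median of the subunits from 0.08 to 0.35 and from 0.30 to 0.62. The subunits minus assembly factors difference in RPF, 1.02, was 0.69 with a common sum, 1.77 with a pseudocount of 0.1, 0.63 with voom and 0.57 to 1.48 when 1 library was left out, and in TE it went from 1.05 to 1.83 with a pseudocount of 0.1, 0.65 with genes of at least 5 RPKM on average and 0.70 with a common sum. In mRNA the difference, -0.38, was -0.69 to 0.02 when 1 library was left out and turned its sign without HB1, while those in RPF and TE kept theirs under every alternative run. The median change of the subunits was -0.11 to 0.34 in mRNA, 0.05 to 0.56 in RPF and -0.38 to 0.42 in TE when 1 library was left out. The cause of these shifts was not tested. Of 12 single-gene changes followed, 0 changed direction under any alternative run. No assembly factor reached 100 footprint reads, so that alternative gave no difference between the classes.

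Same-numbered libraries did not deviate together (correlations -0.104 in RNA-seq and -0.0138 in Ribo-seq between diets), so the numbers were not taken to pair samples. With a replicate block 2 members were called higher in mRNA (4.66%, 11.5%), 1 higher and 2 lower in RPF (1.89%, 5.76%) and 1 lower in TE (1.41%, 4.99%), Ndufaf7 in place of Ndufb7. With the numbers crossed between diets, an alternative added after seeing the data, 1 was called higher in mRNA (4.44%, 12.2%), 5 were called in RPF, 3 of them higher (2.08%, 5.96%), and 1 lower in TE (1.53%, 5.48%), again Ndufaf7.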
